A study of Mus musculus with 36 samples.

Results

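H3K36me2 and H3K27me3 were compared across the autosomes of control neurospheres, in 4 ChIP-seq libraries of the 36 samples in the series, 2 for each mark. Of the 36 samples, 24 had a list of islands, which are stretches of the genome with more reads than the matched input, and 12 were inputs. The neurospheres were floating cultures of neural progenitor cells enriched from hippocampi of newborn (P0) mice and grown with FGF2 and EGF. Ctrl cells carried the genotype label Kdm2bfl/+ or Kdm2bfl/fl, so the CxxC exon of Kdm2b was flanked by loxP sites on at least 1 allele and not deleted, and the label does not say which of the genotypes a library came from. Further libraries were used for comparison. They were cKO neurospheres (Kdm2bEmx1-delta-CxxC, in which Emx1-Cre, active in dorsal telencephalic progenitors, removed the CxxC exon), P0 hippocampus of Ctrl and cKO mice, and H2AK119ub1 from neurospheres of either genotype and Ctrl hippocampus. The cKO hippocampus libraries of H3K36me2 and H3K27me3 entered only the test across sources. Hippocampal tissue holds progenitors and neurons together, whereas the neurospheres had been propagated in culture. The number of animals or cultures behind a library was not stated, so the spread between replicates may be technical.

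H3K27me3 is the trimethyl mark that Polycomb repressive complex 2 places on histone H3, and it lies over silent genes of development. H3K36me2 is laid down by the NSD family and ASH1L and is known for broad coverage of active gene bodies and of the space between genes. PRC2 acts poorly on nucleosomes that carry H3K36 methylation, so the marks are known to occupy separate stretches of chromatin in many cells. KDM2B binds unmethylated CpG islands through its CxxC zinc finger, recruits a variant PRC1 that ubiquitylates H2A, and in its long isoform demethylates H3K36me2.

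The promoters below belong to genes that the comparison turns on, read from the mouse genome GRCm38 (mm10) as the 200 bases before the gene start in GENCODE M21, 5′ to 3′ on the strand of the gene, with each CpG in capitals. They show the base composition of starts in different mark states. Pax2 (chr19:44755845-44756044, plus strand) lay in the longest H3K27me3 island over a start with that mark alone, by the shorter of its islands in the libraries. Papln (chr12:83763434-83763633, plus strand) had H3K36me2 over its whole promoter and body and no H3K27me3. Sox5 (chr6:144781978-144782177, minus strand) had the most H3K36me2-covered bases of any body with that mark alone, and neither mark at the start. Ank3 (chr10:69398573-69398772, plus strand) had H3K27me3 at the start and H3K36me2 in the body.
Pax2: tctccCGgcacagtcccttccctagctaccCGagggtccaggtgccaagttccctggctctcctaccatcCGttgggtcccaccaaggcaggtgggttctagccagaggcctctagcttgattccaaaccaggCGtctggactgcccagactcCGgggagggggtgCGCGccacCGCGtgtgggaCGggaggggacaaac
Papln: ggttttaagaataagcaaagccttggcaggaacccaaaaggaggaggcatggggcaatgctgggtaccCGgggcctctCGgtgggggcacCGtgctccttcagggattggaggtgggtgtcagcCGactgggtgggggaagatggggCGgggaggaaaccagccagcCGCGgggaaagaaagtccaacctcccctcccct
Sox5: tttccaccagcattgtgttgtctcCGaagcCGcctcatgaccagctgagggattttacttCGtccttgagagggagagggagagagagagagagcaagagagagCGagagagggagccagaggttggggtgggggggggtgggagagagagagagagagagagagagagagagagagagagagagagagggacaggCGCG
Ank3: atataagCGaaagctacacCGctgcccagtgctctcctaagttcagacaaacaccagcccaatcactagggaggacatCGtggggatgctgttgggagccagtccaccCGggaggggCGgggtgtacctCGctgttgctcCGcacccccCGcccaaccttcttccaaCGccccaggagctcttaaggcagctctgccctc
The letters CG were counted on the printed strand, and they read the same on the other. Pax2 held 10 CpGs, Ank3 9, Papln 7 and Sox5 6, against a median of 7 over the same window of 20807 promoters. At least as many CpGs as in Pax2 were found in 42.8% of promoters, and at least as many as in Sox5 in 56.5%, so neither sequence stood apart by this count.

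H3K36me2 covered more of the genome than H3K27me3, in more islands. It covered 370 Mb in replicate 1 and 431 Mb in replicate 2, in 107292 and 109719 islands. H3K27me3 covered 245 Mb in 42884 islands and 239 Mb in 53055 islands. The mean covered length was 401 Mb ± 43.2 (SD, n = 2) for H3K36me2 and 242 Mb ± 4.16 (SD, n = 2) for H3K27me3, a difference of 0.72 on the log2 scale. The median island was 2.2 and 2.6 kb long for H3K36me2 and 3 and 2.4 kb for H3K27me3, so the median gave no order. H3K27me3 islands of 10 kb or more held 51.5% and 42.6% of its covered bases, against 29.3% and 30.1% for H3K36me2. The islands held 20518511 and 19788367 reads for H3K36me2 and 14967138 and 12663511 for H3K27me3, that is 55.5, 45.9, 61.0 and 52.9 reads per kb. The reads outside islands were not in the files, so the total depth is unknown. Bases under either mark were richer in G and C than the autosomes, with 46.2% to 48.1% against 41.9%.

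The marks were divided between promoters and gene bodies in opposite ways. H3K27me3 was over-represented at promoters and H3K36me2 in gene bodies. A promoter was the stretch of 2 kb on each side of the start of a protein-coding gene, a gene body the rest of the gene, and the remainder was intergenic. They made up 3.23%, 39.5% and 57.3% of the autosomes. H3K27me3 covered 19.4% and 19.5% of promoter bases in its replicates, and H3K36me2 11.2% and 9.54%. In gene bodies the order was turned around, with 21.5% and 23.7% for H3K36me2 and 8.73% and 8.76% for H3K27me3. Intergenic bases were covered to 11.5% and 14.5% by H3K36me2 and to 10.8% and 10.3% by H3K27me3.

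Relative to the share of the whole genome that each library covered, H3K27me3 was at 1.93 ± 0.0398 (SD, n = 2) in promoters and H3K36me2 at 0.628 ± 0.138 (SD, n = 2). That is a difference of -1.64 on the log2 scale, or 3.11-fold. In gene bodies H3K36me2 stood at 1.35 ± 0.05 (SD, n = 2) and H3K27me3 at 0.865 ± 0.0170 (SD, n = 2), a log2 difference of 0.65. Between genes the ratios were 0.776 ± 0.0423 and 1.04 ± 0.0140 (SD, n = 2 each), a log2 difference of -0.42. The libraries of the marks did not overlap in any of the 3 areas, and each exact permutation test gave p = 0.333 (two-sided), the smallest that 2 against 2 libraries allow.

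**Figure D1:**
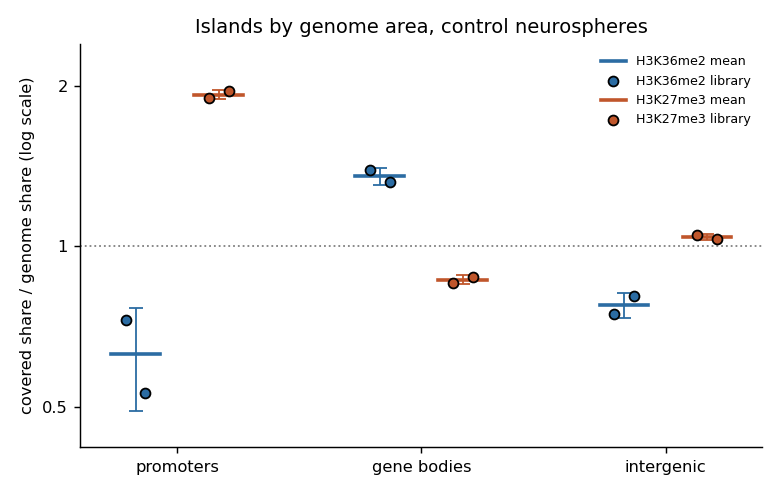
Share of promoter, gene body and intergenic bases under islands of each library, divided by the share of the genome (log axis, with 1 as the genome share). Points are libraries, thick lines the means and thin bars the SD of 2 libraries, and the H3K27me3 points lie above the H3K36me2 points at promoters (1.93 against 0.628) and below them in gene bodies (0.865 against 1.35).

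All 16 libraries of the marks in the series allowed a sharper test, with mark labels permuted within each of the 4 combinations of source and genotype. The mean log2 difference was -2.29 at promoters and 0.48 in gene bodies. Each was reached by 2 of 1296 splits (stratified exact permutation test, two-sided, p = 0.00154 for both, the smallest it can give, and 0.00309 adjusted over the 4 measures tested). Between genes the mean was -0.21 (54 of 1296 splits, exact permutation p = 0.0417, adjusted 0.0417), and the sign was not shared, with -0.42 in Ctrl and -0.50 in cKO neurospheres and 0.096 in Ctrl and -0.026 in cKO hippocampus. The promoter difference in Ctrl neurospheres was -1.64 and in Ctrl hippocampus -3.36 (exact permutation p = 0.444 for the difference between them). The gene body difference was 0.65 in Ctrl neurospheres and 0.23 in Ctrl hippocampus (exact permutation p = 0.333). This wider test also covers cKO and tissue libraries, and it does not speak for control neurospheres alone. In hippocampus the labels name separate inputs for H3K36me2, which they do not in neurospheres. Mark and input set cannot be told apart in the hippocampus strata.

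CpG-rich promoters, defined by over 50% G and C and a CpG ratio over 0.6 in the 1 kb around the start, were 9508 of the 20807, or 45.7%. Their bases were covered to 6.70% ± 1.03 (SD, n = 2) by H3K36me2 and to 14.9% ± 0.152 (SD, n = 2) by H3K27me3. CpG-poor promoters had more of each mark, with 12.8% ± 1.33 and 21.9% ± 0.300 (SD, n = 2 each). Over the 4 strata the CpG-rich difference averaged -7.87 percentage points (stratified exact permutation p = 0.0108, two-sided, 14 of 1296 splits, adjusted 0.0144), with the marks apart in 3 of 4 strata.

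Along genes with CpG-rich promoters, H3K36me2 fell to a low point around the start and climbed inside the gene. It covered 14.4% and 15.2% of bases at 4 to 3 kb before the start, 5.73% and 4.04% in the last 1 kb before it, 6.17% and 3.11% in the first 1 kb after it, 19.3% and 18.8% at 4 to 5 kb and 26.4% and 27.6% at 40 to 41 kb. H3K27me3 also fell towards the start, and inside the gene it went on falling. It covered 24.8% and 22.3% at 4 to 3 kb before the start, 14.7% in the last 1 kb before it in both libraries, 13.2% and 13.7% in the first 1 kb after it, and 7.04% and 7.33% at 40 to 41 kb. Genes with CpG-poor promoters kept H3K27me3 at the start itself, with 22.9% and 24.1% in the first 1 kb, and showed no such dip of H3K36me2 (15.2% and 12.1%). Only genes that reach a given distance enter its value (9406 CpG-rich genes at the start and 3474 at 40 kb), so the far end describes long genes.

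**Figure D2:**
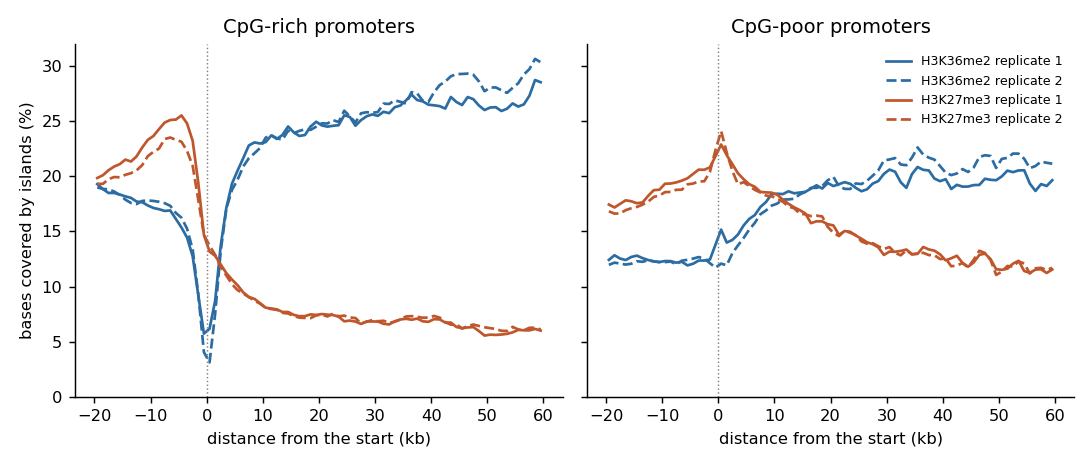
Percent of bases under islands in 1 kb steps from 20 kb before to 60 kb after the gene start, for CpG-rich and CpG-poor promoters (solid and dashed lines are replicates 1 and 2). In the CpG-rich panel H3K36me2 drops to 6.17% and 3.11% just after the start and H3K27me3 falls from 24.8% and 22.3% upstream to 7.04% and 7.33% at 40 to 41 kb inside genes.

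Gene length separated the marks in the same direction. The 19408 genes with a body were put in order of length and cut into 5 groups of equal size. In the group of the shortest genes (2.003 to 6.774 kb), H3K36me2 covered 8.42% and 6.46% of body bases and H3K27me3 19.1% and 19.7%. In the group of the longest (62.7 kb and above) the values were 22.7% and 26.5% for H3K36me2 and 7.42% and 7.50% for H3K27me3. Each step between groups went up for H3K36me2 and down for H3K27me3 in both libraries of the mark.

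At the level of single promoters, 3900 of 20807 (18.7%) had H3K27me3 in both libraries and H3K36me2 in neither. H3K36me2 alone was found at 2032 (9.77%), both marks at 288 (1.38%) and neither at 9605 (46.2%). Without H3K36me2 replicate 1 or 2, H3K36me2 alone was found at 3182 or 3278 promoters and both marks at 494 or 651, and without H3K27me3 replicate 1 both marks at 439. The remaining 4982 had a mark in only 1 of its libraries. Whatever the other mark, H3K27me3 was found in both libraries at 22.9% of promoters and H3K36me2 at 12.3%. CpG-rich promoters were 39.4% of those with H3K27me3 alone, 36.5% of those with H3K36me2 alone and 48.6% of those with neither. When at least 50% of the promoter had to be covered, H3K36me2 alone fell to 851 promoters and both marks to 102.

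Gene bodies were divided the other way when any covered base counted. H3K36me2 alone marked 4226 of 19408 bodies (21.8%), H3K27me3 alone 2607 (13.4%), both marks 1839 (9.48%) and neither 6560 (33.8%). Whatever the other mark, H3K36me2 was found in both libraries in 35.2% of bodies and H3K27me3 in 26.1%. With at least 50% of the body covered the order turned around, at 970 bodies with H3K36me2 alone and 1646 with H3K27me3 alone. Bodies with H3K36me2 alone belonged to long genes, with a median of 48.0 kb, and 63.3% of them had a CpG-rich promoter. Those with H3K27me3 alone had a median of 13.1 kb and a CpG-rich promoter in 27.3%. Over all genes these values were 19.9 kb and 47.5%. Genes with both marks in the body were the longest class, with a median of 86.0 kb, and those with neither had 9.22 kb. A longer body has more bases in which a mark can be called, so the length of a class follows in part from its definition. Promoter and body often had the same mark, and 1 island can span both. Among genes with a body, 62.0% of those whose promoter had H3K36me2 alone had H3K36me2 alone in the body and 0.366% H3K27me3 alone. Of those whose promoter had H3K27me3 alone, 54.6% had H3K27me3 alone in the body and 3.67% (134 genes) H3K36me2 alone.

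H3K27me3 covered whole promoters and whole gene bodies more often than H3K36me2 did, although it covered less of the genome. At 100% of the bases in both libraries, H3K27me3 held 1755 promoters and 856 bodies, and H3K36me2 322 promoters and 153 bodies. At 50% or more it held 2196 bodies against 1647. The 116 fully covered bodies with H3K36me2 alone were short, with a median gene length of 5.25 kb. Short bodies are more readily covered in full. Bodies with H3K27me3 alone belonged to shorter genes than those with H3K36me2 alone (medians 13.1 kb and 48.0 kb).

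The promoters with H3K27me3 alone under the longest islands were 10 genes in 5 islands. In each of the 10 H3K36me2 covered 0% of the promoter in both libraries, as the class requires. Pax2, a transcription factor of the kidney and the midbrain-hindbrain region, lay in islands of 264.8 kb and 223.2 kb with 157 and 139 reads per kb. Engase, an enzyme that trims N-glycans, lay in islands of 275.0 kb and 221.2 kb. Edn2, which encodes endothelin 2, and Foxo6, a forkhead factor, shared islands of 202.8 kb and 208.0 kb. Pabpn1l, the corepressor gene Cbfa2t3 and the acyl-CoA synthetase gene Acsf3 shared islands of 186.8 kb and 186.4 kb. Blk, a kinase of B cells, Fam167a and Tdh shared 182.6 kb and 190.6 kb. All 10 promoters were fully covered by H3K27me3 in both libraries, as the choice of the longest islands would give.

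The 10 bodies with H3K36me2 alone and the most covered bases belonged to very long genes, which a ranking by covered bases favours. None of the 10 had any H3K27me3 in the body, as their class requires. Sox5, a SoxD transcription factor of 954 kb, was covered to 44.5% and 59.8%. St6galnac3, a sialyltransferase gene, was covered to 67.3% and 81.3%, and the forkhead gene Foxn3 to 82.6% and 85.0%. Fto, an RNA demethylase gene, had 72.9% and 74.1%, and Prkca, which encodes protein kinase C alpha, 65.8% and 72.2%. The other members were Ptprg, Trappc9, Agap1, Cdkal1 and Enox1, at 43.9% to 74.5%. Sox5, St6galnac3, Cdkal1, Enox1 and Fto carried neither mark at the promoter, and Trappc9 carried H3K27me3 there over 20.1% and 25.1%.

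Among the 116 bodies with H3K36me2 alone that it covered completely in both libraries, the longest genes were Gnaz, a G protein subunit (49.7 kb), Papln (28.7 kb) and the apical polarity gene Crb2 (22.9 kb). Sdc1, which encodes syndecan 1, the sulfotransferase gene Chst12, the adenosine receptor gene Adora2b, Haao, the potassium channel gene Kcnn4, Cdcp2 and Tmc6 followed at 16.2 to 22.4 kb. At 9 of these 10 genes the promoter also had H3K36me2 alone, against 9.77% of all promoters. An island over a whole body can run on into the promoter, so the choice of these genes favours this. Gnaz had H3K27me3 over 15.6% of its promoter in replicate 2 and 0% in replicate 1.

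Gene groups with a role in patterning carried H3K27me3 at most promoters and H3K36me2 at few. Of all promoters, 18.7% had H3K27me3 alone and 9.77% H3K36me2 alone. All 39 Hox genes, which set position along the body axis, had H3K27me3 alone at the promoter. So did 38 of 38 Hox gene bodies, against 13.4% of all bodies. Homeobox factors of patterning had H3K27me3 alone at 63 of 83 promoters and H3K36me2 alone at 3, forkhead factors at 29 and 4 of 41, T-box and Gata factors at 13 and 1 of 19, and Pax factors at 7 and 0 of 9. The median covered share of the promoter was 100% for H3K27me3 in each of these groups and 0% over all genes. Gbx2, En1, Lhx9 and Lhx4, homeobox factors of brain patterning, had 100% H3K27me3 and 0% H3K36me2 at the promoter in both libraries. The body of Lhx4 had 43.7% and 43.3% H3K36me2 beside 62.5% and 74.1% H3K27me3.

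Some members of these groups had H3K36me2 alone. Nkx2-2, a factor of ventral neural tube and oligodendrocyte identity, had H3K36me2 over 81.0% and 34.0% of the promoter and no H3K27me3. Emx2, a factor of cortical and hippocampal patterning, had 10.7% and 5.72%, and Pou5f2 also had H3K36me2 alone. Foxp2 had 31.3% and 40%, with Foxj2, Foxn3 and Foxn2 as the other forkhead members. Tbx19 was the T-box member. Sox10, a factor of neural crest and oligodendrocytes, had a promoter fully covered by H3K36me2 in both libraries and no H3K27me3. It was the only 1 of 18 Sox factors with H3K36me2 alone (5.56%, against 9.77% of all promoters). H3K27me3 alone was found at 3 Sox promoters (16.7%, against 18.7% of all) and neither mark at 8 (against 46.2% of all). Unlike the groups above, Sox factors did not carry H3K27me3 at most promoters.

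Neurogenic bHLH factors, which start neuronal differentiation, were more evenly spread, with H3K27me3 alone at 7 of 19 promoters (36.8%, against 18.7% of all), H3K36me2 alone at 1 and neither at 4. Neurod1, Neurog2, Atoh1 and Neurog3 had 100% H3K27me3 in both libraries and 0% H3K36me2. Neurod6 had H3K36me2 over 3.45% and 58.5%, so the libraries differed widely there. Glutamate and GABA receptor genes had H3K27me3 alone at 14 of 40 promoters (35% against 18.7%), among them Gabbr2, Grik3 and Grin2b at 100% in both libraries, and H3K36me2 alone at 3, which were Gria1 (100% and 75%), Grin3a (13.6% and 38.6%) and Gabrr2 (50% in both). In their bodies both marks were found in 11 of 40, against 9.48% of all bodies.

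Cytoplasmic ribosomal protein genes had neither mark at 42 of 72 promoters (against 46.2% of all) and 57 of 64 bodies (against 33.8% of all). H3K27me3 alone was found at 13 of their promoters (18.1%, against 18.7% of all promoters). The highest of those were Rpl17, at 86.1% in both libraries, and Rpl3l, a muscle paralogue, at 85.5% and 95.5%, with Rpl5 and Rpl38 next at 47.5% and 46.9% in both. Olfactory receptors, which make up 1087 genes in clusters, had neither mark at 938 promoters, H3K27me3 alone at 89 (8.19%) and H3K36me2 alone at 6 (0.552%). Over all promoters the shares were 46.2%, 18.7% and 9.77%. Clustered protocadherins, whose variable exons share a 3′ end, had H3K27me3 alone at 22 of 57 promoters (38.6%, against 18.7% of all). None of these 57 had H3K36me2 alone. Both marks were found in 30 of 57 protocadherin bodies, which overlap each other, against 9.48% of all bodies. Members of both families resemble each other closely, so reads can be placed on the wrong copy.

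**Figure D3:**
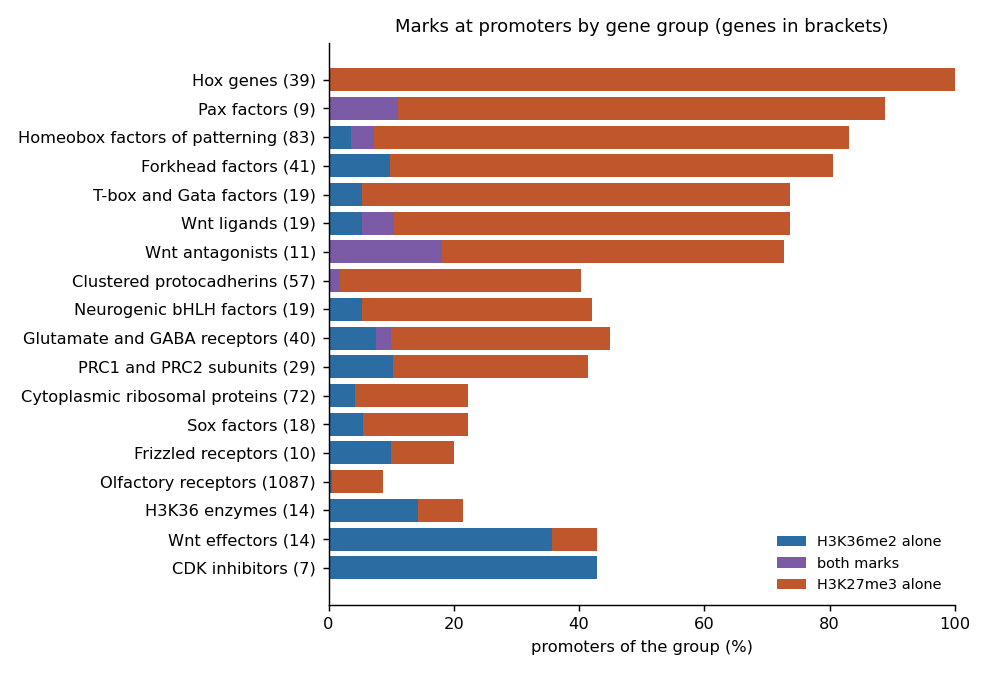
Percent of promoters in each gene group with H3K36me2 alone, both marks or H3K27me3 alone, each called in both libraries (number of genes in brackets, the rest carry neither mark or differ between libraries). Hox genes have H3K27me3 alone at 39 of 39 promoters, against 18.7% of all. Wnt effectors have H3K36me2 alone at 5 of 14, against 9.77% of all.

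Within the Wnt pathway, promoters of ligands and antagonists carried mostly H3K27me3 and those of effectors more often H3K36me2. Over all promoters, 18.7% had H3K27me3 alone, 9.77% H3K36me2 alone, 1.38% both marks and 46.2% neither. Of 19 ligand promoters, 12 had H3K27me3 alone, 1 had H3K36me2 alone and 1 had both. Pooled over the bases of the ligand bodies this order was not seen, with 45.9% and 35.3% under H3K36me2 and 45.1% and 44.2% under H3K27me3. Counted by gene it was, with H3K27me3 in both libraries in 15 of 19 ligand bodies and H3K36me2 in 7. The shares of all bodies were 26.1% and 35.2%. Of 11 promoters of secreted antagonists, 6 had H3K27me3 alone, 0 H3K36me2 alone and 2 both. Intracellular effectors and co-receptors had H3K36me2 alone at 5 of 14 promoters and H3K27me3 alone at 1, and H3K36me2 in both libraries in 10 of 14 bodies against 35.2% of all bodies. Frizzled receptors had 1 of 10 promoters with each mark alone and 3 with neither. The lists were drawn up with earlier results of these data known, so these counts describe the genes and are no test of the group.

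Among the ligands, Wnt6 and Wnt10a, neighbours on chromosome 1, shared 1 H3K27me3 island of 52.0 kb and 52.2 kb with 110 and 81.1 reads per kb. Their promoters were at 100% H3K27me3 and 0% H3K36me2 in every library. The Wnt6 body was the place where the H3K36me2 libraries parted, with 91.0% in replicate 1 and 0% in replicate 2. Wnt8a was the ligand with H3K36me2 alone, at 87.8% and 100% of the promoter. Wnt4 had 100% H3K27me3 in both libraries, and 100% and 0% H3K36me2. Wnt3 likewise had 100% H3K27me3 in both libraries and 100% and 0% H3K36me2 at the promoter, and its body was covered by both marks (97.2% and 65.5% H3K36me2, 79.5% and 95.3% H3K27me3).

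Wnt7b was split along its length. Its promoter had 68.2% and 100% H3K27me3 and 48.2% and 0% H3K36me2, and its body 98.2% and 88.7% H3K36me2 against 13.9% and 8.16% H3K27me3. Part of the gene, away from its start, also lay in 1 of the 5 longest H3K36me2 stretches shared by both libraries (74.8 kb, chr15:85488401-85563200). Of the antagonists, Sfrp2 had both marks at the promoter (72.0% and 38.0% H3K36me2, 27% and 2% H3K27me3) and H3K36me2 alone in the body at 70.0% and 88.1%. Dkk3 had 100% of each mark at the promoter in all 4 libraries. Sfrp1 and Notum had 100% H3K27me3 and no H3K36me2 in both. Of the effectors, the co-receptor gene Lrp5 had 100% H3K36me2 at the promoter in both libraries and no H3K27me3. Tcf7 had 70.0% and 55.0% H3K36me2 and Tcf7l1 53.7% and 48.7%. Lef1, the nuclear partner of beta-catenin, was the exception with H3K27me3, at 100% in both libraries, while 59.3% and 33.2% of its body had H3K36me2.

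Of the other genes that the study followed, Pax6, a factor of cortical progenitors, had both marks at its promoter, with 100% and 87.5% H3K36me2 and 100% H3K27me3 in both libraries. Eomes, a factor of intermediate progenitors, had 100% H3K27me3 in both and 25.3% and 0% H3K36me2 at the promoter, and both marks in the body. Neurod1 had H3K27me3 alone throughout. Kdm2b had no H3K27me3, and H3K36me2 over 40.6% and 28.7% of its body. Islands of both marks on the same bases can come from different cells or different alleles, and the files do not tell these apart.

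PRC1 and PRC2 subunit genes had H3K27me3 alone at 9 of 29 promoters (31.0%, against 18.7% of all), with Epop and Cbx7 at 100% in both libraries and Cbx2 at 100% and 91.0%, and H3K36me2 alone at 3, which were Phc2, Aebp2 and Yaf2. H3K36 enzyme genes had H3K36me2 alone at 2 of 14 promoters (14.3%, against 9.77% of all), Smyd2 (100% and 60%) and Ash1l (10.5% and 10.5%), and H3K36me2 alone in 6 of 14 bodies, against 21.8% of all. Only Kdm8 had H3K27me3 alone. CDK inhibitor genes had H3K36me2 alone at 3 of 7 promoters (42.9%, against 9.77% of all). Among them were Cdkn1a at 100% in both libraries and Cdkn2b at 66.0% in both.

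Marker genes of cell types were checked for the label of the cultures. Shares of all promoters were 46.2% with neither mark, 18.7% with H3K27me3 alone, 9.77% with H3K36me2 alone and 1.38% with both. Whatever the other mark, H3K27me3 was in both libraries at 22.9% and H3K36me2 at 12.3%. Of 12 neural progenitor markers, Sox2 and Vim had neither mark in promoter or body, 4 had neither at the promoter, and 3 had H3K27me3 in both libraries (Pax6, Msi1 and Hes1). Notch1 had 100% H3K36me2 in both. Of 8 neuron markers, Rbfox3, Slc17a7 and Gad2 had H3K27me3 alone, Gad1 had H3K36me2 alone, and Map2 and Snap25 had neither at the promoter. Among astrocyte markers Gfap had H3K27me3 alone and S100b H3K36me2 alone, and among oligodendrocyte lineage markers Sox10 and Mbp had H3K36me2 alone, Pdgfra had both marks and Olig1 and Olig2 had neither. None of the 5 microglia and blood markers had either mark at the promoter in both libraries. Mesenchyme markers had H3K27me3 alone at 3 of 4, and of the 3 endothelium markers Cldn5 had both marks. Expression was not measured in these libraries, so the markers do not tell which cells the cultures held.

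In libraries that had no part in defining the promoter classes, each mark was found at a larger share of its own class than of the other class. In cKO neurospheres, H3K36me2 islands were found at 91.7% and 47.0% of promoters with H3K36me2 alone in Ctrl, at 34.7% and 1.46% of those with H3K27me3 alone, and at 44.2% and 11.9% of all promoters. The cKO H3K36me2 libraries stand far apart in promoter coverage (23.4% and 4.37%). H3K27me3 islands in cKO were found at 90.1% and 79.4% of promoters with H3K27me3 alone, at 11.6% and 2.66% of those with H3K36me2 alone and at 30% and 23.1% of all. In Ctrl hippocampus H3K27me3 reached 51.2% and 39.2% of the H3K27me3 class, 9.45% and 7.14% of the H3K36me2 class and 17.3% and 12.9% of all. H3K36me2 there reached 19.9% and 15.6% of its own class, 2.49% and 2.38% of the H3K27me3 class and 4.92% and 3.97% of all. The value for all promoters includes the class that carries the mark. Among promoters with neither mark in Ctrl neurospheres, H3K27me3 in Ctrl hippocampus reached 5.3% and 3.38%, and H3K36me2 1.52% and 1.11%. In Ctrl hippocampus the class of the other mark thus lay above promoters with neither mark. In cKO neurospheres this held in replicate 1 of each mark and was turned around in replicate 2.

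H2AK119ub1, the mark of PRC1, was found at more promoters with H3K27me3 alone than with H3K36me2 alone. In Ctrl neurospheres its islands were found at 68.9% and 37.9% of promoters with H3K27me3 alone, 44.3% and 11.2% of those with H3K36me2 alone, 90.6% and 46.2% of those with both and 37.5% and 15.1% of all. Its replicates covered 319 Mb and 116 Mb, so the share with an island moves with the library. In bases, H3K27me3 and H2AK119ub1 shared 4.01 to 5.75 times the expected length and H3K36me2 and H2AK119ub1 1.75 to 2.87 times. As a share of H2AK119ub1, H3K27me3 held 41.0% and 41.2% in replicate 1 and H3K36me2 44.3% and 38.1%. In H2AK119ub1 replicate 2 the shares were 58.9% and 57% for H3K27me3 and 28.3% and 31.4% for H3K36me2.

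**Figure D4:**
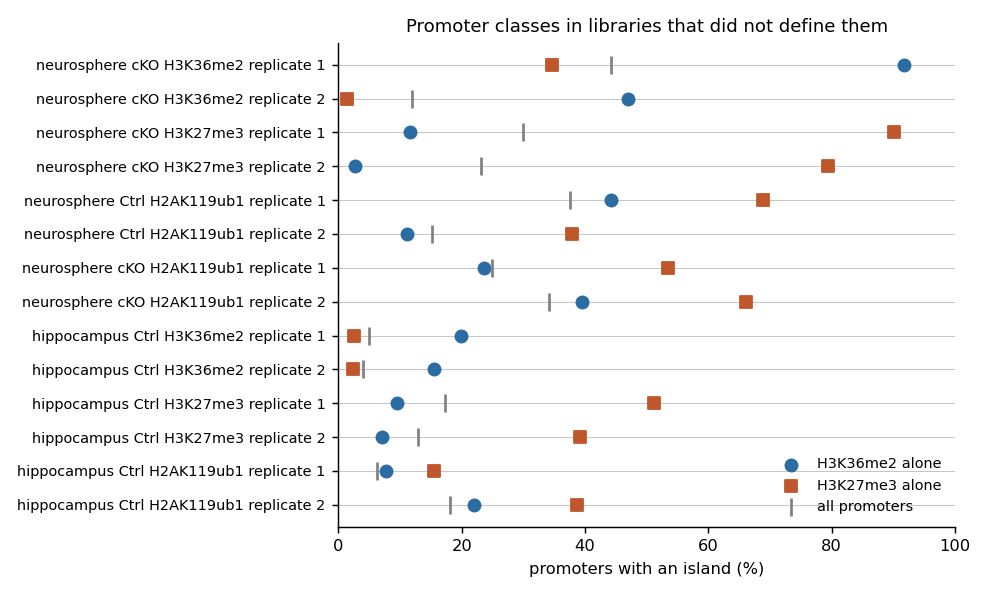
Percent of promoters with an island in 14 libraries that did not define the classes, for promoters with H3K36me2 alone (circles) or H3K27me3 alone (squares) in control neurospheres, and for all promoters (ticks). In both H3K27me3 libraries of cKO neurospheres the squares lie at 90.1% and 79.4% and the circles at 11.6% and 2.66%.

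Where the marks met, they overlapped about as much as their covered shares give, and less inside genes than between them. The bases under a library of each mark, divided by the product of their genome shares, were 0.953, 1.05, 0.736 and 0.818 of the expected length in the 4 pairs, a mean of 0.889 (SD 0.140 over pairs, which share libraries). Without H3K36me2 replicate 2 the mean was 1.00 and without replicate 1 it was 0.777, so it depended on the H3K36me2 library. The mean of the 4 pairs was 0.731 in promoters, 0.792 in gene bodies and 1.07 between genes. H3K36me2 replicate 1 alone gave 0.787 and 0.857 in promoters, 0.866 and 0.959 in gene bodies, and 1.14 and 1.25 between genes. On bases covered in both libraries of each mark, 273 Mb for H3K36me2 and 178 Mb for H3K27me3, the overlap of 14.9 Mb was 0.735 of the expected length, with 0.523 in promoters, 0.642 in gene bodies and 0.908 between genes. The Jaccard index (shared over joint bases) was 0.050 to 0.068 between marks, 0.517 between the H3K36me2 replicates and 0.583 between the H3K27me3 replicates.

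Borders between the marks were sought where a stretch of H3K27me3 and a stretch of H3K36me2, each found in both libraries, lay within 5 kb of each other. There were 2847, with a median gap of 2.2 kb, among 38625 H3K27me3 and 88792 H3K36me2 stretches. By their middle, 58.4% were intergenic, 35.7% in gene bodies and 5.97% in promoters. These areas made up 57.3%, 39.5% and 3.23% of the autosomes. Of 1110 borders inside genes, 650 (58.6%) had H3K27me3 on the side of the gene start. Edges of islands had the other mark nearby less often than bases of the genome at large. An H3K36me2 island lay within 5 kb outward of 8.46% to 10.6% of H3K27me3 edges, whereas 14.7% and 14.5% of assembled bases lay outside islands and had 1 that near on a given side. The reverse was 4.31% to 5.21% of H3K36me2 edges, against 5.98% and 7.40% of bases.

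Many of these borders were not sharp in single libraries. Over the first 5 kb on the H3K27me3 side, an H3K36me2 island of 1 library or the other covered 29.9% and 33.2% of bases, and on the H3K36me2 side H3K27me3 covered 24.9% and 24.8%. Only 644 of the 2847 (22.6%) had no island of the other mark in any library over the first 1 kb of each side. In cKO neurospheres H3K27me3 covered 61.1% and 47.7% of the H3K27me3 side and 35.1% and 18.2% of the H3K36me2 side, and H3K36me2 44.8% and 15.3% against 64.2% and 26.4%. G and C were equal on both sides, at 46.3%, and CpGs were 12.2 and 11.6 per kb, against 8.51 per kb in the autosomes. H2AK119ub1 covered 54.3% and 28.4% of the H3K27me3 side and 51.1% and 20.2% of the H3K36me2 side.

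**Figure D5:**
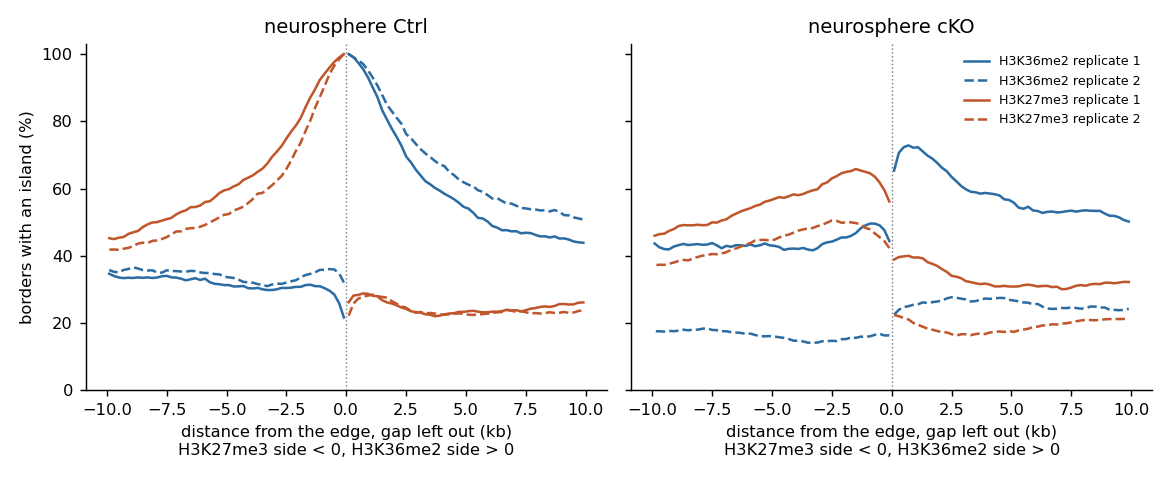
Percent of 2847 borders with an island of each library in steps of 0.2 kb away from the edge, with the gap between the marks left out, for Ctrl neurospheres (whose islands define the borders) and cKO neurospheres. In cKO, H3K27me3 is higher on the left side (61.1% and 47.7% over 5 kb) than on the right (35.1% and 18.2%).

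Genes with H3K27me3 at the promoter, H3K36me2 in the body and such a border with H3K27me3 on the side of the start numbered 385 of 19408 (1.98%), out of 1238 with the marks in these places. Without H3K36me2 replicate 2 they were 596. Their median length was 66.7 kb, against 19.9 kb over all genes with a body, and calls from any covered base favour long genes. Genes with H3K36me2 in both libraries in the body had a median of 57.2 kb. A CpG-rich promoter was found in 57.4% of the border genes, against 47.5% of all genes with a body. The share was 56.8% where the body had H3K36me2 in both libraries and 40.6% where the promoter had H3K27me3 in both. With at least 50% of promoter and body covered the border genes were 82. Ank3, which encodes ankyrin-G of the axon initial segment, had 100% H3K27me3 at the promoter in both libraries and 52.3% and 68.7% H3K36me2 in the body, where H3K27me3 held 1.47% and 0.324%. H3K36me2 reached 29.3% of the Ank3 promoter in replicate 2 and 0% in replicate 1. Its border gap was 4.2 kb wide and began 2.8 kb after the start. The promoter of Ank3 printed above lies on the H3K27me3 side of this change.

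Gabbr2, a subunit of the GABA-B receptor, had 100% H3K27me3 at the promoter and 70.6% and 68.0% H3K36me2 in the body. Shank2, a scaffold of the postsynapse, had 100% and 98.2% H3K27me3 at the promoter and 63.7% and 52.9% H3K36me2 in the body, and Ephb1, an ephrin receptor gene, 100% in both and 49.7% and 55.9%. Ptprt, a receptor phosphatase gene, had 93.7% and 98.7% at the promoter and 21.8% and 29.5% in the body. Foxp1, Grik4, Sorcs2, Kalrn and Auts2 were the others. Grik4 and Sorcs2 carried both marks at the promoter as well. The border nearest the start lay 1.75 kb after it in Ptprt, 10.3 kb in Ephb1, 78.1 kb in Foxp1 and 260 kb in Sorcs2. H3K27me3 covered 36.7% and 30.4% of the Gabbr2 body and 35.0% and 29.1% of the Auts2 body, so H3K27me3 was not limited to the start in these genes.

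Among the longest stretches found in both libraries, the marks differed in size and in gene content. For H3K36me2 they included 125 kb at chr8:117297201-117422200 in Cmip, 99.6 kb over Chga and Itpk1, 74.8 kb over 7530416G11Rik and Wnt7b, and 73.0 kb in Spsb1. For H3K27me3 they were 363.2 kb at chr6:99862201-100225400 with no protein-coding gene, 223 kb over Pax2, 205.4 kb over Prdm16, 202.8 kb over Hivep3, Edn2 and Foxo6, and 186.4 kb over Gm20388, Trappc2l, Pabpn1l, Cbfa2t3 and Acsf3.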

How the data were processed

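Ctrl neurosphere libraries of H3K36me2 and H3K27me3 (2 each) were analysed on the 19 autosomes. The authors fixed cells, digested chromatin with micrococcal nuclease and sonicated it. Per the methods and the submitters' processing notes, paired reads were trimmed with cutadapt and aligned to mm10 with Bowtie2 2.4.5, duplicates were removed, and islands were called per library against input with SICER (window 200, gap 600, FDR 0.01, version not given in the sources used here). The deposited files hold each island with its read count, so counts exist only inside islands and the total depth is unknown. Nucleosome digestion and island calls depend on depth and input, and stretches missed by the caller read as 0.

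Coverage was computed on 200-base bins against assembled bases of GRCm38.p6 and 20807 protein-coding GENCODE M21 genes (Python 3.11.15, NumPy 2.4.6). A mark was present with any covered base in both libraries and absent with none in either. Marks were compared by exact permutation tests over libraries. The scripts were tested on planted islands. The members and gene lists were chosen with earlier results of these data known. Named genes were the 10 with the longest H3K27me3 island over the start, the 10 with most H3K36me2 in the body (of all and of fully covered bodies), the 10 border genes with most covered bases, the genes followed by the study, up to 4 members of each list with highest coverage of its commoner mark together with members of the other mark alone, and the genes in the 5 longest stretches. Replicate numbers mark no shared litter or day in the labels. Alternatives were a minimum island length of 2 kb, equal covered length, promoters of 1 kb on each side, coverage of at least 50%, genes overlapping no other gene, another denominator, border distances of 2 and 10 kb, and leaving out each library. Papln was picked for its sequence after its values were seen, as was leaving out islands of over 500 reads per kb. One of the longest stretches and the bases of a border are not reported here.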

Additional observations from a re-analysis of the deposited data

Results flagged for a closer look

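The contrast of the marks between genes went in opposite directions in Ctrl neurospheres and Ctrl hippocampus, but not in cKO, where it was -0.50 in neurospheres and -0.026 in hippocampus on the log2 scale. Intergenic enrichment of H3K36me2 against H3K27me3 was -0.42 on the log2 scale in Ctrl neurospheres, where both H3K36me2 libraries were below both H3K27me3 libraries, and 0.096 in Ctrl hippocampus, where both were above. The difference between the sources was reached by 2 of 36 splits of the mark labels (exact permutation test, two-sided, p = 0.0556, the smallest that this design can give, adjusted 0.278 over the 5 measures compared), so it could not pass 0.05. H3K36me2 covered 6.72% and 4.78% of the autosomes in Ctrl hippocampus and H3K27me3 5.15% and 2.28%, against 15.4% and 18% for H3K36me2 and 10.2% and 9.99% for H3K27me3 in Ctrl neurospheres. The part of this lower coverage in the difference was not tested. H3K36me2 also had separate inputs by label in hippocampus and not in neurospheres, so the input set cannot be told apart from the mark there.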

How the results depend on the processing

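With 2 libraries for a mark no test within control neurospheres could pass 0.05, the depth outside islands is unknown, and overlap of islands does not show both marks on 1 nucleosome. Of 136 alternative values, 110 stayed within the limits set for them, 25 moved and 1 changed sign. The promoter, gene body, intergenic and CpG-rich differences kept their sign in every alternative run. As reported, promoters with H3K36me2 alone numbered 2032 and with both marks 288, bodies with H3K36me2 alone 4226, H3K27me3 alone 2607 and both 1839, and border genes 385, with mean edge shares of 9.66% (H3K27me3) and 4.70% (H3K36me2) and an overlap of 0.889. At equal covered length the covered length ratio was -3.07e-05 by construction, promoters with H3K36me2 alone numbered 1117 and with both marks 176, 6.46% of H3K27me3 edges had H3K36me2 near and border genes were 198. With islands of at least 2 kb that edge share was 8.72%, and with promoters of 1 kb on each side both marks were found at 161. With at least 50% covered, promoters with H3K36me2 alone were 851 and with both 102, bodies with H3K36me2 alone 970, H3K27me3 alone 1646 and both 62, and border genes 82. A genome share over 10 kb bins with an island gave an overlap of 0.701. Within 2 kb the edge shares were 4.67% (H3K27me3) and 2.16% (H3K36me2) with 206 border genes, and within 10 kb 15.7% and 8.15%.

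Leaving out each library in turn gave 2128 to 3278 promoters with H3K36me2 alone, 384 to 651 with both marks and 513 to 596 border genes, since fewer libraries have to agree. Chosen after seeing the data, bases covered in both libraries of each mark gave an overlap of 0.735. The replicate block, with the numbers taken as pairs, left each difference as it was (0.72, -1.64, 0.65, -0.42 and -8.19) with sign-flip p = 0.500 (exact permutation, the smallest for 2 pairs), and pairings of equal number gave an overlap of 0.885. Equal numbers had a mean Jaccard index of 0.0589 between marks and unequal numbers 0.0593. The cause of each move was not tested where the alternative itself does not give it.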

Other observations

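The chromosomes differed in the balance of the marks more than the replicates did. On chromosome 3, H3K36me2 covered 13.2% and 17.1% of bases and H3K27me3 5.29% and 4.89%, a log2 ratio of means of 1.57. On chromosome 11, which has 13.8 protein-coding genes per Mb against 6.42 on chromosome 3, it covered 18.5% and 19.0% and H3K27me3 17.4% and 17.2%, a log2 ratio of 0.11.

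The relation between the marks changed with the scale at which it was read. Across windows, which share the libraries and the base composition of their surroundings, Spearman's rank correlation between the mean coverage of the marks was -0.034 over 2395765 windows of 1 kb, -0.090 over 239487 of 10 kb, 0.039 over 23868 of 100 kb and 0.41 over 2376 of 1 Mb.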
